A study of Mus musculus with 8 samples.

Results

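The genes described here are 10 transcription factors of heart muscle: Gata4, Nkx2-5, Tbx5, Tbx20, Mef2a, Mef2c, Mef2d, Hand2, Srf and Myocd. They were taken by name from a deposited table of raw read counts for 38293 mouse genes, all 10 were found there, and all 10 were among the 14567 genes that passed the filter on low counts. The table holds poly(A)-selected RNA of heart ventricle, left and right mixed, from mice aged 8 weeks. Of its 8 libraries, 4 came from mice heterozygous for a deletion in Pkp2 (HET; genotype label PKP2 c.1755A/WT, written with the deletion as c.1755delA in the series title) and 4 from wild-type mice (WT; genotype label PKP2 WT/WT). Strain, sex and litter are not stated in the sources used here, nor whether each library is a separate animal, so a p-value here reflects the spread among these libraries alone, which may be technical. Pkp2 encodes plakophilin-2, a desmosome protein mutated in arrhythmogenic cardiomyopathy, and the series title asks about loss of desmosomal proteins in that disease.

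These factors form the core of the gene programme that builds and maintains heart muscle cells. GATA4 (a zinc finger protein), NKX2-5 (a homeodomain protein) and TBX5 (a T-box protein) bind DNA together at cardiac enhancers, TBX20 is a second T-box factor of the adult myocardium, and HAND2 is a helix-loop-helix factor needed to form the right ventricle. The MEF2 proteins and SRF belong to the MADS-box family. MEF2 proteins are held in check by class II histone deacetylases, and SRF binds the CArG box, often with its coactivator myocardin, the product of Myocd. The dose of several of these factors is limiting in humans, where loss of a single copy of GATA4, NKX2-5 or TBX5 causes congenital heart disease.

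Total counts were 32397302 to 41234883 per library. Pkp2 itself was at 59.8% of its WT level in HET (95% interval 54.1% to 66.1%, Benjamini-Hochberg adjusted p = 0.00376 in edgeR's quasi-likelihood fit), and all 4 HET libraries lay below all 4 WT libraries. The 8 cardiomyocyte markers summed to 74836 to 79097 CPM in HET and 70867 to 74975 CPM in WT (CPM: counts scaled to library size after TMM normalisation). The means were 77081 and 73290 CPM, and 6 of the 8 markers had a fold change above 0. HET replicates 1, 3 and 4 lay above every WT library in this sum, and HET replicate 2 did not. Much of the sum was Myh6, which averaged 36583 CPM in HET and 33577 CPM in WT. Actc1 and Myl2 had log2 fold changes of -0.01 and -0.00. Myh6, Tnnt2, Actc1, Ryr2 and Tnni3 are also among the targets of GATA4, NKX2-5 and TBX5 below, so both lists rest partly on the same values. The part of the marker shift in the levels of the factors was not tested. The atrial markers Sln, Myl7 and Bmp10 had at most 2, 4 and 1 counts in any library. WT replicate 3 had the highest macrophage marker sum, 307 CPM against 199 to 223 in the other 7 libraries. The 7 fibroblast markers summed to 688 to 865 CPM in HET and 733 to 855 CPM in WT. Of these 7, 0 had a fold change above 0, and their part in the levels of the factors was not tested.

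None of the 10 factors passed edgeR's test of HET against WT over all genes. DESeq2, which called 0.0892% of all genes tested, and limma-voom, which called 0.00686%, also called 0 of the 10. Each of the 3 tools gave 1 of the 10, Hand2, an unadjusted p under 0.05. The background is just as sparse: edgeR called 0% of the genes tested higher and 0.00686% lower, which is Pkp2 alone. In edgeR, 6.38% of them had an unadjusted p under 0.05. In none of the 10 genes were the HET and WT libraries fully separated, where 3.78% of all genes tested were. The size of a difference that these data allow was small. For 9 of the 10 factors the 95% interval of the log2 fold change (HET over WT) lay within -0.5 and 0.5, as it did for 70.6% of all genes tested. The exception was Myocd. Fold changes were above 0 for 9 of the 10 genes, with a median of 0.10 on the log2 scale, against 48.5% of all genes tested and a median of -0.004. Leaving out HET replicate 3 brought the median of the 10 to 0.05. It was 0.06 with WT replicate 4 left out, and 0.06 with digits shared by sample titles as a covariate. When libraries were scaled by total count alone, 6 of the 10 were above 0 (median 0.06) beside 32.7% of all genes, and the median of all genes tested was -0.05.

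**Figure D1:**
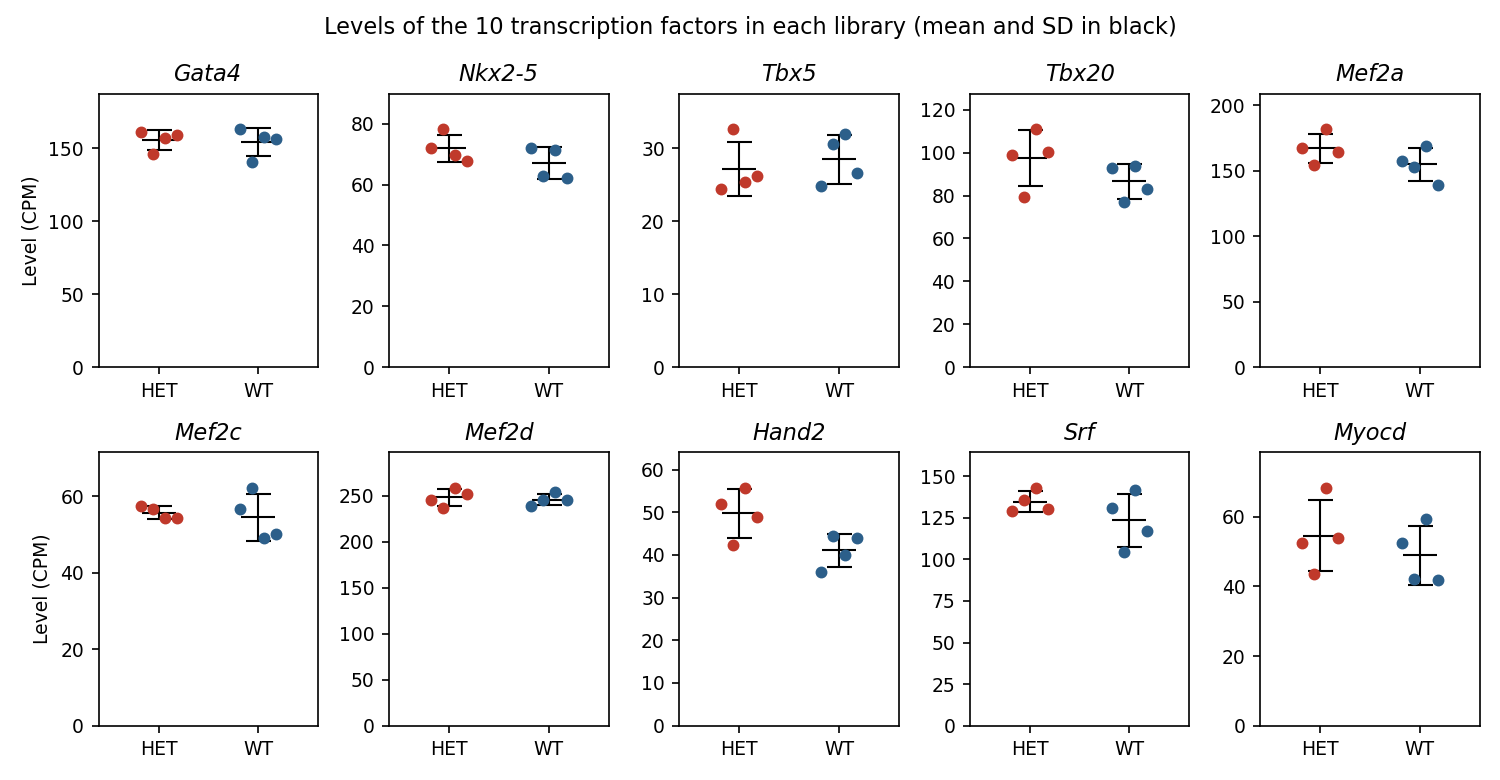
Level of each of the 10 transcription factors (vertical axis, CPM from 0) in the 4 HET libraries (red points) and the 4 WT libraries (blue points); the black mark and bar give the group mean and SD. The groups overlap in every panel, and Hand2 has means of 49.7 and 41.1 CPM, the largest difference of the 10 as a ratio.

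Gata4 (ENSMUSG00000021944; chromosome 14, 63198922 to 63271692, minus strand, GRCm38) encodes the zinc finger factor that activates Nppa, Myh6 and other contractile genes. Its values were 161, 146, 157 and 159 CPM in HET replicates 1 to 4 and at 163, 140, 157 and 156 CPM in WT replicates 1 to 4. The groups covered nearly the same range. Relative to WT, the HET mean came to 101% (95% interval 92.5% to 110%, adjusted p = 0.971 by edgeR).

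Nkx2-5 (ENSMUSG00000015579; chromosome 17, 26838664 to 26845009, minus strand), whose product marks the cardiac lineage and maintains conduction, was at 72.0, 78.2, 69.7 and 67.6 CPM in HET and at 71.9, 63.0, 71.4 and 62.3 CPM in WT. HET replicates 1 and 2 lay above all WT libraries, by very little for the first, and WT replicates 2 and 4 lay below all HET libraries. This put HET at 107% of WT (interval 96.6% to 118%, adjusted p = 0.776 by edgeR).

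Tbx5 (ENSMUSG00000018263; chromosome 5, 119832668 to 119885219, plus strand), the T-box factor of Holt-Oram syndrome, was the only one of the 10 with a lower HET mean under this scaling. It had 24.4, 32.6, 25.4 and 26.3 CPM in HET and 24.8, 30.6, 32 and 26.7 CPM in WT. Both groups held low and high libraries, so the spread within a group was larger than the gap between means. The HET level was 95.2% of WT (interval 80.8% to 112%, adjusted p = 0.909 by edgeR), and the log2 fold change moved from -0.07 to 0.09 once digits shared by sample titles were a covariate. Tbx5 is known to be higher in atrium than in ventricle. The sum of 7 atrial markers, most of it Nppa, was 242 to 482 CPM in HET and 290 to 379 CPM in WT. The part of atrial tissue in the spread of Tbx5 was not tested.

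Tbx20 (ENSMUSG00000031965; chromosome 9, 24718138 to 24774303, minus strand), a T-box factor that adult heart muscle needs to keep its contractile and ion channel genes on, was at 99.0, 79.3, 111 and 100 CPM in HET. In WT it was at 92.9, 76.9, 93.8 and 83.1 CPM. In HET, 3 libraries lay above all of WT, while HET replicate 2 was the second lowest of the 8. On average HET reached 112% of WT (interval 96.0% to 132%, adjusted p = 0.770 by edgeR). The log2 fold change of 0.17 was 0.10 without HET replicate 3 and 0.01 with the title digits as covariate, so its size moved with the libraries and covariate used.

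Hand2 (ENSMUSG00000038193; chromosome 8, 57320983 to 57324633, plus strand) showed the largest difference of the 10. It stood at 51.9, 42.3, 55.8 and 48.9 CPM in HET and at 36.1, 44.3, 40.1 and 43.9 CPM in WT. HET replicates 1, 3 and 4 lay above every WT library, and HET replicate 2 lay among the WT libraries. Means were 49.7 ± 5.70 and 41.1 ± 3.84 CPM (SD, n = 4 each), which places HET at 121% of WT (interval 105% to 139%). On the log2 scale this is 0.28 (SE 0.0908). Its unadjusted p was 0.012 in edgeR and its adjusted p 0.770, so it did not pass. Over the alternatives the log2 fold change ran from 0.22 to 0.35 and the adjusted p from 0.5 to 0.994. Sample titles hold digits that some libraries share, and what the digits mark is not stated. Among 4 libraries with the same digits, 3 HET libraries had a mean of 52.2 CPM and the single WT library, WT replicate 1, had 36.1 CPM, the lowest of the 8 (log2 ratio 0.53). Among 3 with other digits, the single HET library had 42.3 CPM and 2 WT libraries a mean of 42.0 CPM (log2 ratio 0.01). The remaining library, WT replicate 2, has digits of its own. With the digits as covariate the log2 fold change was 0.29 (adjusted p = 0.966 by edgeR).

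Hand2 is also made by sympathetic neurons, and an antisense RNA overlaps its exons. The 7 markers of neurons and glia summed to 14.4 to 18.7 CPM in HET and 13.9 to 17.7 CPM in WT, with Th at 0 in all libraries and Dbh at 155 to 251 counts, and the part of such cells in the Hand2 difference was not tested. The antisense gene Hand2os1 overlaps 461 bases of the Hand2 exons, 19.6% of their length, and was not analysed here. Because the strand setting of the counting is not given in the sources used here, reads of Hand2os1 and Hand2 cannot be told apart in that stretch. The 250 bases before the Hand2 start are shown because Hand2 had the largest difference of the 10 (RefSeq, GRCm38.p6, chr8:57320733-57320982, plus strand). A GATA motif (AGATAA, read here on the opposite strand) is in capitals, and whether GATA4 acts through this stretch was not tested.

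Hand2 promoter: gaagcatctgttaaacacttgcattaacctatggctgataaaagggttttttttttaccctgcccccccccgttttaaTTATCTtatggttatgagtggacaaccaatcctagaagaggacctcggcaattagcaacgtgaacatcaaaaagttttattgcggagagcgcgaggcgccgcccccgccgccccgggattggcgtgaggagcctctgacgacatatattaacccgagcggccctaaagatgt

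The motif lies 172 to 167 bases before the start. AGATAA was the only form of the GATA motif searched for, so other forms in the sequence are not marked. AGATAA on either strand occurs in 9.99% of 32841 promoters of the same length, so a match is common and is a description of the letters, not a binding site.

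**Figure D2:**
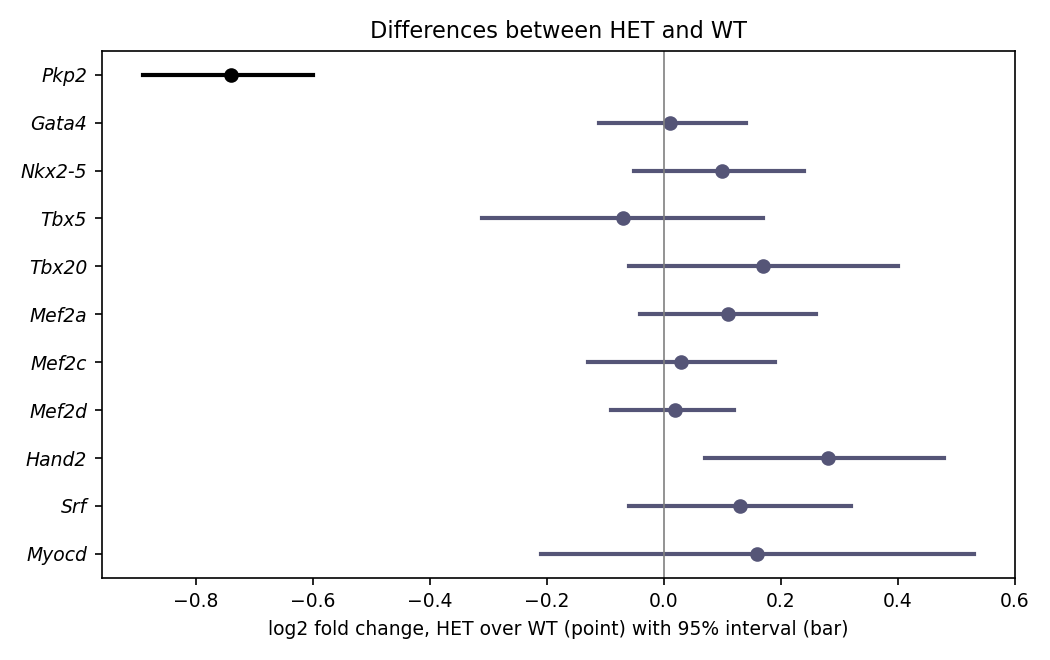
Log2 fold change of HET over WT (horizontal axis; points) with its 95% interval (bars) for Pkp2 (black) and the 10 transcription factors (grey). The interval of Pkp2 runs from -0.89 to -0.60, that of Hand2 from 0.07 to 0.48, and those of the other 9 factors cross 0; no factor passed the test after adjustment over all genes.

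The log2 fold changes of Mef2d, Mef2a and Mef2c were 0.02, 0.11 and 0.03. Mef2d (ENSMUSG00000001419; chromosome 3, 88142372 to 88172086, plus strand), which mediates pathological growth of adult heart muscle, was at 246, 237, 259 and 252 CPM in HET and at 239, 246, 254 and 245 CPM in WT. The highest library exceeded the lowest by 1.09 times. HET was at 101% of WT (interval 94.2% to 108%, adjusted p = 0.958 by edgeR), the narrowest interval of the 10.

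Mef2a (ENSMUSG00000030557; chromosome 7, 67231163 to 67372858, minus strand), the MEF2 factor tied to mitochondrial upkeep in adult heart, was at 168, 154, 182 and 164 CPM in HET. In WT it was at 158, 153, 169 and 139 CPM. The ranges overlapped, with HET replicate 3 highest and WT replicate 4 lowest. HET came to 108% of WT (interval 97.2% to 120%, adjusted p = 0.773 by edgeR). Mef2a shares 302 exonic bases, 2.06% of its exon length, with Lysmd4 on the other strand, whose log2 fold change was -0.14 (SE 0.110).

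Mef2c (ENSMUSG00000005583; chromosome 13, 83504034 to 83667080, plus strand), the MEF2 factor of the embryonic heart field that endothelial cells also make, was at 57.6, 56.6, 54.3 and 54.2 CPM in HET. In WT it was at 56.6, 62.3, 49.2 and 50.2 CPM. All HET libraries lay inside the WT range. Mean HET expression was 102% of WT (interval 91.3% to 114%, adjusted p = 0.944 by edgeR). The 7 endothelial markers summed to 960 to 1062 CPM in HET and 961 to 1173 CPM in WT, and their part in the Mef2c level was not tested. In bulk tissue, fewer cells of a type and less RNA per cell cannot be told apart.

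The make-up of the MEF2 family was compared within each library. Per kilobase of merged exon, Mef2d gave 73.5% ± 0.499 of the summed MEF2 level in HET and 74.5% ± 1.23 in WT, Mef2a 20.1% ± 0.628 and 19.1% ± 1.12, and Mef2c 6.32% ± 0.397 and 6.34% ± 0.732 (SD, n = 4 each). No share passed an exact two-sided permutation test (adjusted p = 0.400, 0.400 and 0.971 over the 6 ratios compared). Without adjustment this test cannot go below 0.0286, so a lone share could not pass the adjustment even with its groups fully apart. The unadjusted p of the same test was 0.171 for Mef2d, 0.2 for Mef2a and 0.971 for Mef2c. The groups overlapped in each share. The shares depend on the length assigned to each gene. Merged exons span 14681 bases in Mef2a and 15715 in Mef2c, against longest transcripts of 5538 and 6277 bases. For Mef2d the lengths are 5985 and 5401 bases. With the longest annotated transcript as the length, Mef2d held 54.1% in HET and 55.4% in WT, Mef2a 35.4% and 34.0%, and Mef2c 10.5% and 10.6%. Mef2b, the other member of the family, had 0 counts in every library. Mef2d overlaps the antisense gene 1700113A16Rik over 531 exonic bases, and that gene had 7 to 15 counts, against 7605 to 10513 for Mef2d.

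Srf (ENSMUSG00000015605; chromosome 17, 46548329 to 46556175, minus strand) encodes the MADS-box factor that drives actin and other cytoskeletal genes. It was at 129, 136, 143 and 130 CPM in HET and at 131, 104, 141 and 117 CPM in WT. The HET libraries were close together, and WT spread from the lowest to the second highest value of the 8. HET lay at 109% of WT (interval 95.7% to 124%, adjusted p = 0.776 by edgeR). The log2 fold change of 0.13 was 0.05 without WT replicate 2, which held the lowest level, and 0.20 without WT replicate 3. SRF is known to act on its own gene through CArG boxes close to its start. The 250 bases before the start are shown for that reason (RefSeq, GRCm38.p6, chr17:46556163-46556412, minus strand), with the CArG boxes in capitals.

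Srf promoter: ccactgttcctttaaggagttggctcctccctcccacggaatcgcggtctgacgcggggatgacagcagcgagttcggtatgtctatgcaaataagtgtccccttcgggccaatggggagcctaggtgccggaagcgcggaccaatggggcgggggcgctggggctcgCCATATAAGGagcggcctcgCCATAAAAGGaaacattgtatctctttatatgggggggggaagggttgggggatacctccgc

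The 2 CArG boxes lie 82 to 73 and 62 to 53 bases before the start and do not overlap. A CArG box on either strand occurs in 1.47% of the 32841 promoters searched. Of the 10 factors, 7 have an entry in the RefSeq promoter table (Hand2, Mef2a, Mef2c, Mef2d, Nkx2-5, Srf and Tbx20), and of these Srf alone has a CArG box in this window. The MEF2 element, present in 0.509% of promoters, was found in none of the 7.

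Myocd (ENSMUSG00000020542; chromosome 11, 65176561 to 65269989, minus strand), whose product is the coactivator of SRF in heart and smooth muscle, varied most among the 10. It was at 52.6, 43.5, 68.3 and 54.0 CPM in HET and at 52.3, 42.2, 59.3 and 41.7 CPM in WT. Both groups held low and high libraries, and the highest, HET replicate 3, was 1.64 times the lowest. The HET level was 112% of WT (interval 86.6% to 144%, adjusted p = 0.845 by edgeR). The log2 fold change of 0.16 became 0.03 when HET replicate 3 was left out. It was 0.27 with WT replicate 3 left out and -0.02 with the title digits as covariate, so the direction was not settled. The 7 smooth muscle markers summed to 604 to 710 CPM in HET and 590 to 687 CPM in WT, and all 7 had a fold change above 0. Their part in the level and spread of Myocd was not tested.

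Ratios between partners gave 1 separation. Gata4 stood to Gata6, its closest relative in the heart, at 3.86, 3.99, 3.98 and 3.98 per kilobase in HET and at 4.71, 4.07, 4.02 and 4.96 in WT, and every HET library lay below every WT library. The mean log2 difference was -0.16, with p = 0.0286 by the exact two-sided permutation test, the smallest it can give. After adjustment over the 6 ratios p was 0.171 by this test, so it did not pass. With 4 libraries per group, a lone ratio at the smallest p cannot pass that adjustment. The adjusted test therefore could not decide whether this ratio differed. The SD of the ratio was 0.0639 in HET and 0.467 in WT. Gata4 had nearly equal group means, while Gata6 averaged 65.4 ± 3.55 CPM over HET and 57.9 ± 5.28 CPM over WT (SD, n = 4 each). Leaving out single libraries gave mean log2 differences of -0.21 to -0.11. The ratio of Tbx5 to Tbx20 was 0.746 ± 0.215 in HET and 0.861 ± 0.138 in WT (adjusted p = 0.514 by the same exact test, n = 4 each), with HET replicate 2 highest of all at 1.07. The ratio of Srf to Myocd was 5.57 ± 0.945 in HET and 5.61 ± 0.409 in WT (adjusted p = 0.971 by the exact test, n = 4 each).

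**Figure D3:**
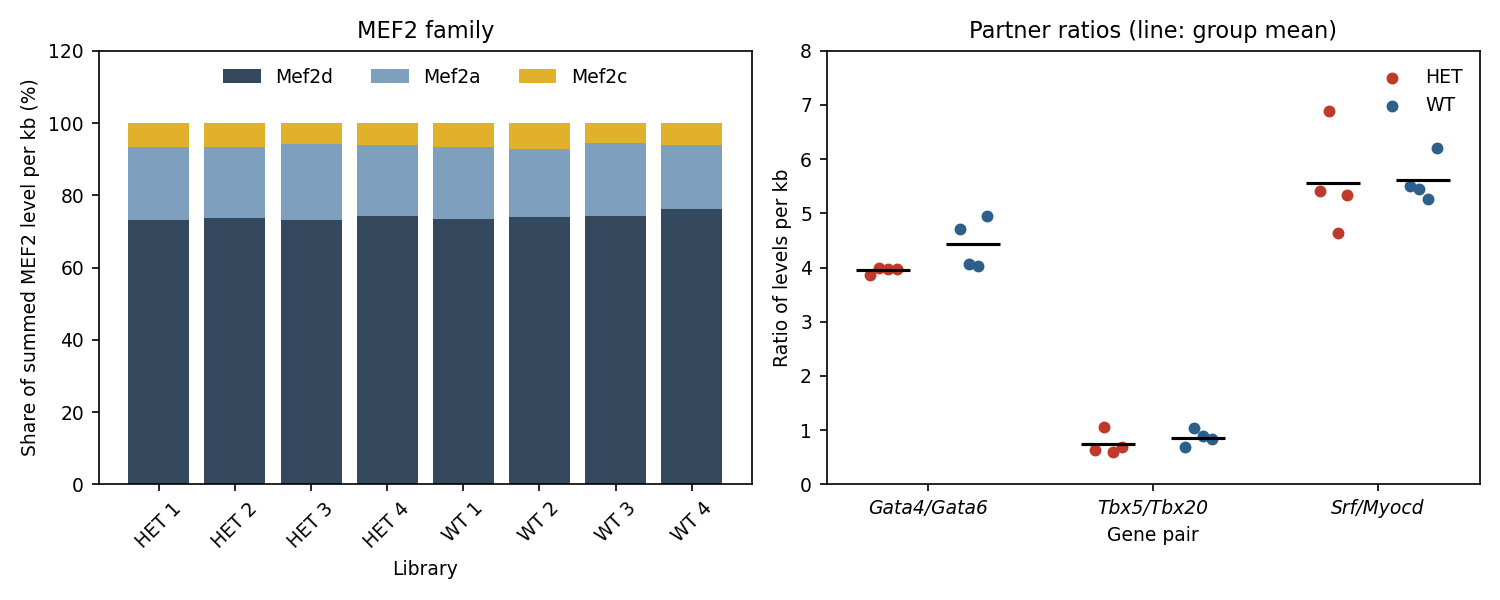
Left, share of each MEF2 gene in the summed MEF2 level per kilobase of merged exon (stacked bars, percent) in the 8 libraries; right, ratio of levels per kilobase for 3 gene pairs, HET libraries in red, WT in blue, black line for the group mean. Mef2d holds 73.1% to 76.3% in every library, and the ratio of Gata4 to Gata6 is 3.86 to 3.99 in HET and 4.02 to 4.96 in WT.

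The libraries also differed in these factors within each group. HET replicate 3 had the highest level of 6 of the 10 (Tbx20, Mef2a, Mef2d, Hand2, Srf and Myocd). WT replicate 2 had the lowest level of 3 (Gata4, Tbx20 and Srf) and WT replicate 4 of another 3 (Nkx2-5, Mef2a and Myocd). The other lowest levels were in WT replicate 1 (Hand2), WT replicate 3 (Mef2c), HET replicate 1 (Tbx5) and HET replicate 2 (Mef2d). Tbx5 and Nkx2-5 were highest in HET replicate 2, Gata4 in WT replicate 1 and Mef2c in WT replicate 2. Over the 8 libraries Mef2a and Myocd moved together most closely, with Pearson's r = 0.92 (exact permutation p = 0.000942, adjusted p = 0.0424 over 45 pairs) and Spearman's rho = 0.98 (exact permutation p = 0.000397, adjusted p = 0.0179). Without the 2 libraries farthest from the median of Mef2a, r was 0.90, and leaving out single libraries gave 0.86 to 0.95. No other pair passed the adjustment. Tbx20 and Myocd had r = 0.92 (exact permutation p = 0.0025, adjusted p = 0.0564) and rho = 0.86 (p = 0.0107, adjusted p = 0.229 by the exact permutation test), and 0.83 without the 2 libraries farthest on Tbx20. Tbx5 ran the other way from Gata4, with r = -0.72 (adjusted p = 0.233) and rho = -0.74 (adjusted p = 0.229), both by exact permutation, and r = -0.52 without 2 libraries. All levels of a library share its size scaling. These correlations were computed after the values had been seen. How often other genes peak in a given library, or correlate this closely, is not given here. Neither the ranks nor the correlations are therefore shown to be particular to these factors.

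**Figure D4:**
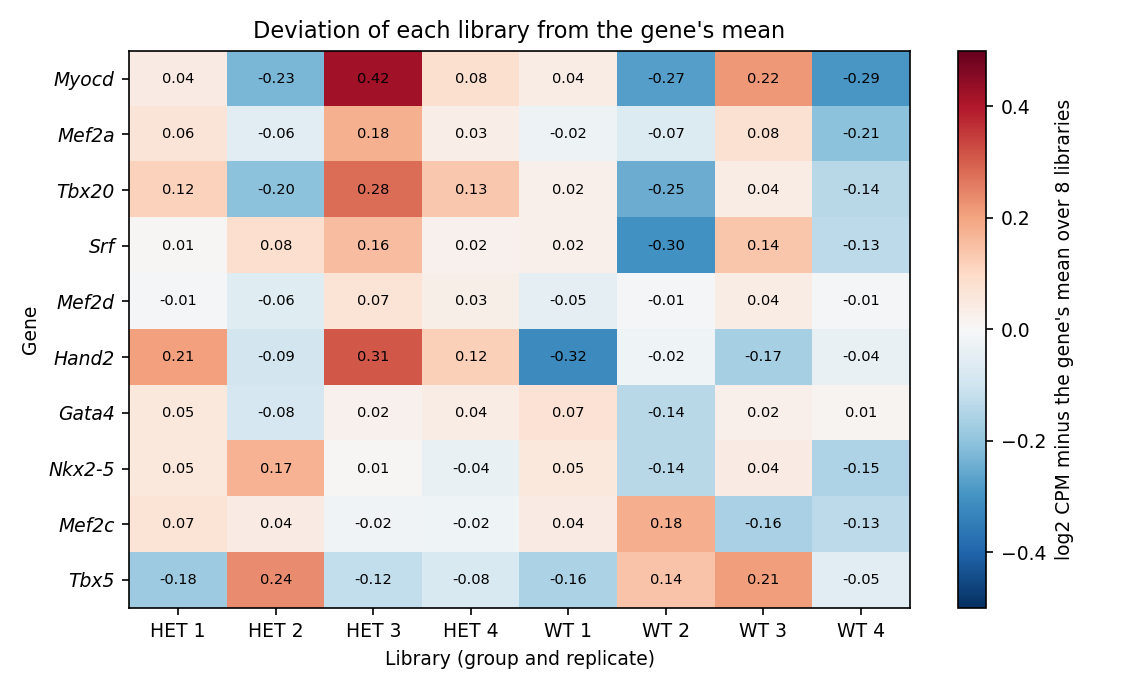
Log2 CPM of each of the 10 factors (rows) in each library (columns) minus the gene's mean over the 8 libraries; red is above the mean and blue below, with the value in each cell. Myocd and Mef2a are highest in HET 3 and lowest in WT 4, while Tbx5 is highest in HET 2.

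By level per kilobase of merged exon, the 10 factors fell into tiers in all libraries. Srf (mean 44.6 CPM per kilobase over the 8 libraries), Mef2d (41.3), Nkx2-5 (40.4) and Gata4 (39.7) formed the top tier, and their ranges over libraries overlapped, so their order is not resolved. Hand2 followed at 19.3 (range 15.4 to 23.7), apart from the genes on both sides of it. Mef2a (11.0, range 9.48 to 12.4), Myocd (8.05), Tbx20 (7.67) and Tbx5 (5.96) each overlapped the next. Mef2c was last at 3.51 (range 3.13 to 3.96), below every library of Tbx5. With the longest transcript as the length, Mef2a stood at 29.0, above Hand2, and Mef2c at 8.78, above Tbx5 (7.06), so the places of these MEF2 genes depend on the length chosen. The top tier kept its members, at 45.6 to 49.3. The factors varied between libraries about as much as other genes: their median coefficient of variation of CPM was 6.56% in HET and 9.36% in WT, against 8.10% and 9.46% over all genes tested. Mef2d (3.73% in HET, 2.5% in WT) was at the steady end and Myocd (18.8% and 17.4%) at the variable end.

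Of 25 other transcription factors that work with these 10, 21 were tested, 0 changed in either direction by edgeR, DESeq2 or limma-voom, and 10 had a fold change above 0 (median log2 fold change -0.02). Hand1, Mef2b and Isl1 had 0 counts in all libraries. Gata6 ranged from 60.6 to 69.2 CPM across HET and from 52.2 to 65.0 CPM across WT. It had a log2 fold change of 0.18 (SE 0.0687; edgeR, adjusted p = 0.770). Tbx2, a T-box repressor of chamber genes, was lower in every HET library, at 11.1 to 12.4 CPM against 12.5 to 14.4 CPM. It did not pass (log2 fold change -0.21, SE 0.0722; edgeR, adjusted p = 0.770). Tbx2 was the 1 gene of the 21 with no overlap between groups, beside 3.78% of all genes tested. Elk4, an ETS partner of SRF, had a log2 fold change of -0.12 (SE 0.0582). Esrra, the nuclear receptor of oxidative metabolism and the most abundant of the list, was at 161 ± 8.32 and 155 ± 9.65 CPM.

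Among 25 cofactors and regulators, all tested, 0 changed by any of the 3 tools, and 17 had a fold change above 0 (median 0.04). Zfpm2, which encodes FOG2, the zinc finger protein that binds GATA4 and sets its activity, had 19.7 to 25.8 CPM across HET libraries and 16.5 to 20.8 CPM across WT libraries. Its log2 fold change was 0.32 (SE 0.0973, unadjusted p = 0.00782 and adjusted p = 0.770 by edgeR), and the groups overlapped. Of the deacetylases that restrain MEF2, Hdac9 was at 23.0 ± 1.69 and 19.7 ± 2.87 CPM and Hdac5 at 143 ± 5.08 and 133 ± 7.49 CPM in HET and WT. Hdac4 had a log2 fold change of 0.19 and Hdac7 went the other way, at -0.05. None of these deacetylases passed. Fhl2, a LIM protein that binds SRF and the most abundant of the list, was at 1763 ± 100 and 1706 ± 62.7 CPM.

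The textbook targets of the factors were measured in the same libraries, as 3 lists. Of 20 targets of GATA4, NKX2-5 and TBX5, 19 were tested, 0 changed by any of the 3 tools, and 14 had a fold change above 0. The median was 0.12, and 0.06 without HET replicate 3. It was 0.07 under library-size scaling and 0.07 with the title digits as covariate. Log2 fold changes ran from -0.49 to 0.21. By edgeR, 5 of the 19 had an unadjusted p under 0.05 with a higher HET level, and 1 with a lower level. Of all genes tested, 6.38% had an unadjusted p under 0.05. Of the 21 partner factors, 1 was higher and 1 lower at that limit by edgeR. It was 2 higher and 0 lower for both the 25 cofactors and the 19 MEF2 targets. Of the 20 targets of SRF and myocardin, 1 was higher and 2 lower. Groups did not overlap in 3 of the 19, Atp2a2, Gja1 and Myh6, beside 3.78% of all genes tested. They overlapped in all of the cofactors and of the targets of SRF and myocardin. Atp2a2, which encodes the SERCA2 calcium pump, had a log2 fold change of 0.20 (adjusted p = 0.770 by edgeR and 0.0725 by DESeq2). Gja1, the ventricular connexin, had 554 to 599 CPM across HET and 453 to 537 CPM across WT. Myh6, the adult myosin heavy chain and the most abundant of the list, had a log2 fold change of 0.12 (SE 0.0397). The natriuretic peptide gene Nppa, the classic joint target, was at 299 ± 110 and 308 ± 36.2 CPM, and Nppb at 194 ± 27.3 and 216 ± 32.7 CPM. These last 2 were chosen after their values were seen.

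Of 19 MEF2 targets, all tested, 0 changed by any of the 3 tools and 11 had a fold change above 0 (median 0.03). Slc2a4, the insulin-responsive glucose transporter, was at 551 ± 29.8 and 496 ± 28.5 CPM. Des, the muscle intermediate filament, had 2327 to 2475 CPM across HET and 2108 to 2282 CPM across WT. It did not pass (log2 fold change 0.11, SE 0.0440; edgeR, adjusted p = 0.770). Des was the 1 gene of the 19 with no overlap between groups, beside 3.78% of all genes tested. Klf6, a zinc finger factor, had 0.22 (SE 0.155), which was 0.08 without HET replicate 3, and Mb, which encodes myoglobin and was the most abundant, 0.04 (SE 0.0557).

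Of 20 targets of SRF and myocardin, all tested, 0 changed by any of the 3 tools and 11 had a fold change above 0 (median 0.05). Lmod1, the smooth muscle leiomodin, averaged 5.38 ± 0.582 CPM over HET and 4.29 ± 0.474 CPM over WT and did not pass (log2 fold change 0.33, SE 0.119; edgeR, adjusted p = 0.770). Csrp1, a LIM protein gene of smooth muscle, averaged 48.6 ± 1.83 CPM over HET and 52.7 ± 1.33 CPM over WT, and the filamin gene Flna at 230 ± 7.58 and 250 ± 11.9 CPM. Tpm1, the cardiac tropomyosin and the most abundant of the list, had 0.05 (SE 0.0582).

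**Figure D5:**
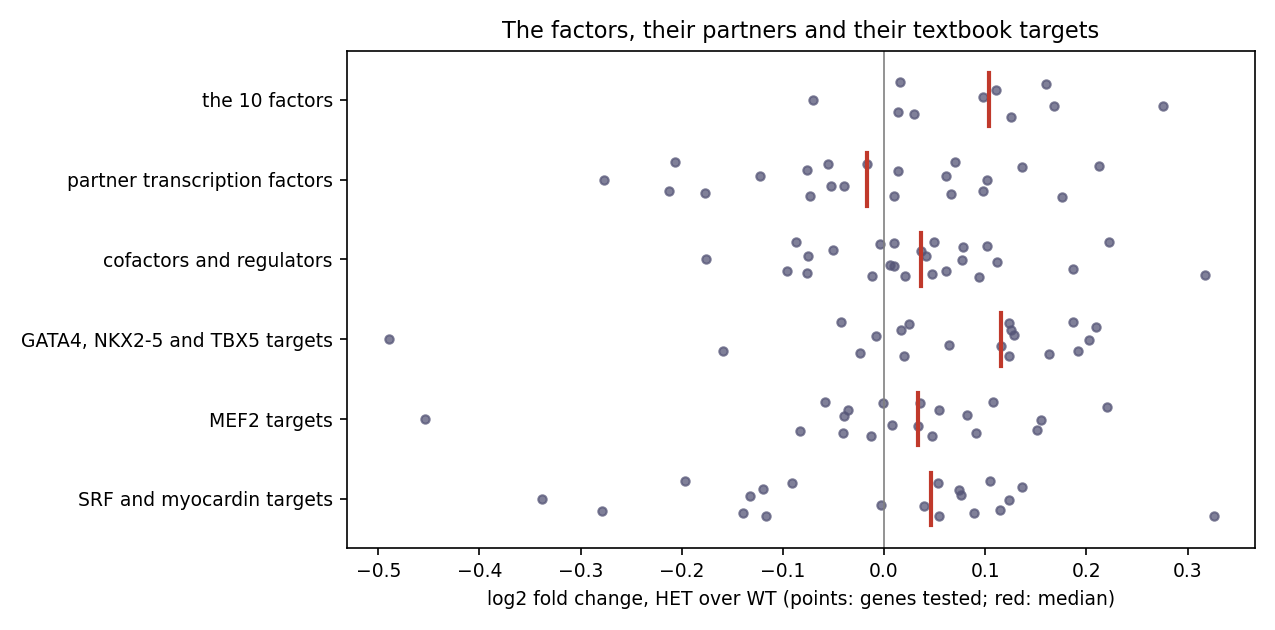
Log2 fold change of HET over WT (horizontal axis) for the tested genes of 6 lists (points), with the median of each list as a red line. Medians run from -0.02 for the partner factors to 0.12 for the targets of GATA4, NKX2-5 and TBX5, and no gene shown passed the test after adjustment over all genes.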

How the data were processed

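Poly(A) RNA of 8 ventricle samples had been sequenced from stranded libraries, per the labels' protocols. The values are raw read counts per Ensembl gene as the authors deposited them, not normalised. The submitters' processing notes name STAR 2.4.2a, HTSeq 0.6.1 and the build GRCm38/mm10; the annotation release and strand setting are not given in the sources used here. Symbols (36345 of 38293 genes), positions and lengths came from GENCODE M21 for GRCm38, and promoters from RefSeq on GRCm38.p6. Groups follow the genotype label, and replicates are numbered in deposition order.

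Counts were filtered with filterByExpr (14567 genes left), scaled by TMM and tested with edgeR 4.0.16 (quasi-likelihood, robust, no covariate, Benjamini-Hochberg over all genes, threshold 0.05) in R 4.3.3. Standard errors come from the F statistic. Ratios took 0.5 CPM as pseudocount and exact permutation tests (scipy 1.17.1). Alternatives were RLE and library-size scaling, no filter, 1 CPM in 4 samples, DESeq2 1.42.0, limma-voom (limma 3.58.1), title digits as covariate, other pseudocounts, the longest transcript as length and leaving out each library. The script was tested on simulated data. Over all 28 library pairs the mean chi-square per gene was at least 14.9, where sampling noise gives about 1, so no library was a copy of another.

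The 10 factors and all lists were chosen with earlier results of these data known. Genes named are Pkp2, the 10 factors, in each list the 3 genes of smallest p and the most abundant, and genes overlapping a factor's exons. Markers or listed genes with few or no counts are named beside them with their counts. Dbh, Nppa, Nppb, Actc1, Myl2, Hdac4 and Hdac7 were picked with their values in view. Tnnt2, Ryr2 and Tnni3 are named only as markers that are also targets. The values of 1 gene of the partner list are not reported here.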

Additional observations from a re-analysis of the deposited data

Results flagged for a closer look

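In 52 groups of 4 libraries (levels, ratios and marker sums), 3 held a library far from the other 3, where chance flags about 1 in 20 groups. The ratio of Gata4 to Gata6 was 3.86 in HET replicate 1 and 3.98 to 3.99 in the other HET libraries, a small gap in a very tight group. The atrial marker sum was 482 CPM in HET replicate 1 and 242 to 281 CPM in the other HET libraries. Most of it was Nppa, at 461 CPM in HET replicate 1, which is also on the target list. The atrial markers Sln, Myl7 and Bmp10 had at most 2, 4 and 1 counts in any library. The macrophage marker sum was 307 CPM in WT replicate 3 and 206 to 220 CPM in the other WT libraries. No level of a single factor was flagged in this way.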

How the results depend on the processing

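Under all 15 alternatives 0 of the 10 factors and 0 genes of the 5 other lists were called, and the log2 fold changes of Nkx2-5, Tbx20, Mef2a, Hand2 and Srf stayed above 0. Signs changed for the other 5 factors, Myocd among them, whose log2 fold change was 0.16 in the comparison of all 8 libraries. Library-size scaling gave Gata4 -0.03, Mef2c -0.01, Mef2d -0.03 and the MEF2 target Mb -0.01. The title digits as covariate gave Gata4 -0.07, Tbx5 0.09 and Myocd -0.02. Leaving out single libraries gave Gata4 -0.03 to 0.04, Mef2c -0.02 to 0.10, Mef2d -0.00 to 0.04 and Mb -0.01 to 0.08; it gave mean log2 differences of -0.06 to 0.06 for the Mef2c share and -0.13 to 0.06 for Srf over Myocd. The Mef2c share was at -0.01 with the longest transcript as length. The cause was not tested in any of these cases. Over all genes DESeq2 called 7 higher and 6 lower, the fit without a filter 2 lower, and leaving out single libraries 1 to 3 lower (3 without HET replicate 3). No paired analysis was possible because the labels give no replicate number that the groups share. The longest-transcript length, the correlations between factors and their alternatives were chosen after seeing the data.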
